A study of Mus musculus with 53 samples.

Results

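GATA6 binding was compared between the double-positive (DP) embryonic stem cells of KOSR culture, which express SOX2 and GATA6 together, and naive extra-embryonic endoderm (nEnd). The study profiled the SGGC mouse line (E14JU embryonic stem cells carrying fluorescent fusion reporters of SOX2 and GATA6), and 5 of the 33 peak lists with an assigned condition are GATA6 lists. Of these, 3 came from DP cells sorted out of KOSR medium (libraries titled A, A1 and B, labelled clone B12) and 2 from nEnd grown in its own defined medium (clones B9 and B12). The antibody was the same in each, and each line is a clone that carries both reporters in DP and in nEnd alike. CUT&RUN was used, in which an antibody guides micrococcal nuclease to a bound protein and the released DNA is sequenced, and SEACR called the peaks of each library, with IgG as the control. The 13528 listed DP peaks and the 56733 listed nEnd peaks merged into 39910 regions of the genome. Among the merged regions, 708 (1.77%) held a peak of at least 2 DP libraries and of no nEnd library (DP-only), 15716 (39.4%) held a peak of both nEnd libraries and of no DP library (nEnd-only), and 2212 (5.54%) held a peak of at least 2 DP and of both nEnd libraries (shared). The classes follow from the overlaps by definition, so their sizes are a description.

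GATA6 is a zinc-finger transcription factor that binds the sequence GATA and is required to specify the primitive endoderm (PrE), the extra-embryonic layer that nEnd represents in culture. SOX2 is a core factor of pluripotency and marks the epiblast. The inner cell mass of the blastocyst expresses both factors before the 2 lineages part, and DP cells resemble it in this respect. H3K4me1 is a histone mark found at poised and active enhancers, and H3K27ac marks the active ones.

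The strongest called regions of each class are given with their sequences. The sequences are the 200 bp centred on the max-signal midpoint (the middle of the stretch in which the peak has its highest coverage), on the plus strand of GRCm38 (mm10) from RefSeq, and capitals mark AGATAA or its reverse complement TTATCT, the extended GATA site. They were ranked by the percentile of their max signal within each library with a peak, averaged over those libraries. Regions touching an untranslated region, and those of the chromosome that holds Gata6, are not shown. The DP-only regions lay at chr19:46053072-46053271, in an intron 3367 bp from a start site of Pprc1, a transcriptional coactivator, at chr9:3015625-3015824, 71 bp from the start of the predicted gene Gm10720, and at chr2:179457215-179457414, in an intron and 13082 bp from a start site of Cdh4, a cadherin.
Pprc1 DP-only: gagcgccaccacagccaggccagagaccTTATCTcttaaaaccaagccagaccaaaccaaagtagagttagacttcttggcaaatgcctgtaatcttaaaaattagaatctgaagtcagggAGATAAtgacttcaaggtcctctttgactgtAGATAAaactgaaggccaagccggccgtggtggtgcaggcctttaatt
Gm10720 DP-only: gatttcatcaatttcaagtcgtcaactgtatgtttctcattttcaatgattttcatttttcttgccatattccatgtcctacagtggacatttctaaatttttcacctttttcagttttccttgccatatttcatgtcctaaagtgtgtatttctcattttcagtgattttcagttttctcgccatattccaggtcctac
Cdh4 DP-only: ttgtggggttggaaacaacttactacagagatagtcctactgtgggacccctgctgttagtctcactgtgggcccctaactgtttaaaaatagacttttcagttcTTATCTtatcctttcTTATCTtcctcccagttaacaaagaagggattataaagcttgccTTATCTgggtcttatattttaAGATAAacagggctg
The Pprc1 and Cdh4 windows held 3 and 4 AGATAA matches. The Gm10720 window held none and was 91.0% soft-masked, that is, annotated as repeat sequence. Whether the peaks called there reflect GATA6 binding was not tested.

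The shared regions lay at chr10:112973715-112973914, between genes and 44814 bp from Atxn7l3b, at chr1:178409040-178409239, in an intron and 3037 bp from Efcab2, and at chr12:31229380-31229579, between genes and 11290 bp from the predicted gene Gm6993.
Atxn7l3b shared: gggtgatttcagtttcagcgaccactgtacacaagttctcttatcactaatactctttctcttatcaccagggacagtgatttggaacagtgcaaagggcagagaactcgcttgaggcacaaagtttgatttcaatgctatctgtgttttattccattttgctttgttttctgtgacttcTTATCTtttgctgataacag
Efcab2 shared: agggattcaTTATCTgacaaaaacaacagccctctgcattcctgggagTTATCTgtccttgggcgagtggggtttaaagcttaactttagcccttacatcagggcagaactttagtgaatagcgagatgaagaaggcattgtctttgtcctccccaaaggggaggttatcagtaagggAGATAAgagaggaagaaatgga
Gm6993 shared: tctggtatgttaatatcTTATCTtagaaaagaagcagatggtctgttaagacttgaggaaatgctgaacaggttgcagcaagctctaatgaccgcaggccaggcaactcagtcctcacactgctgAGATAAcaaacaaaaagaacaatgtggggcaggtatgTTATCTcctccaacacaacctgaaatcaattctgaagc
Their windows held 1, 3 and 3 matches. The nEnd-only regions lay at chr3:121553971-121554170, between genes and 21667 bp from Slc44a3, a choline transporter-like gene, at chr1:134152876-134153075, between genes and 14330 bp from Chit1, a chitinase, and at chr7:132250731-132250930, in an intron and 27794 bp from Chst15, a sulfotransferase.
Slc44a3 nEnd-only: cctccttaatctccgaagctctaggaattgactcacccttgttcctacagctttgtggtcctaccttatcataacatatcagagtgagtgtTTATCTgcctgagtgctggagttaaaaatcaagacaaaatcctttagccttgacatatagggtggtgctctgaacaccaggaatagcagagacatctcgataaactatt
Chit1 nEnd-only: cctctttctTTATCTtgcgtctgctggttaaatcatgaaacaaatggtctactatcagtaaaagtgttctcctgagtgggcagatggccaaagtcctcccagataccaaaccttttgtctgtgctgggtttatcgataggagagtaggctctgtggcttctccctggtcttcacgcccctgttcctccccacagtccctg
Chst15 nEnd-only: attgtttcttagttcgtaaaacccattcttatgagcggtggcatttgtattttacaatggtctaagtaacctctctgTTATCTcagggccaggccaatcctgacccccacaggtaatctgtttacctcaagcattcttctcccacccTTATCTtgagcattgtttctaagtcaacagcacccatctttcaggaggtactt
These windows held 1, 1 and 2 matches. Regions of 4 of the lineage genes examined whatever their values are shown beside them. They lay at chr1:4537547-4537746, between genes and 40293 bp from Sox17, an endoderm transcription factor, at chr12:86480725-86480924, in an intron of Esrrb, a pluripotency nuclear receptor, at chr17:67685480-67685679, between genes and 11679 bp upstream of Lama1, a laminin of the basement membrane, and at chr4:55515967-55516166, between genes and 15703 bp from Klf4, a pluripotency factor.
Sox17 nEnd-only: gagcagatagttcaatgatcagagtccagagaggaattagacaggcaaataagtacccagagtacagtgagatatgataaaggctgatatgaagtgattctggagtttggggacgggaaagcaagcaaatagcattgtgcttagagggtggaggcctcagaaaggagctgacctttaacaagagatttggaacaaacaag
Esrrb shared: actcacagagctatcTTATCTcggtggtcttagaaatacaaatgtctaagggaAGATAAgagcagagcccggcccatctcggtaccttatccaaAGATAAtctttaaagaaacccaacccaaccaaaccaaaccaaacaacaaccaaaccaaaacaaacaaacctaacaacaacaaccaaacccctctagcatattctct
Lama1 nEnd-only: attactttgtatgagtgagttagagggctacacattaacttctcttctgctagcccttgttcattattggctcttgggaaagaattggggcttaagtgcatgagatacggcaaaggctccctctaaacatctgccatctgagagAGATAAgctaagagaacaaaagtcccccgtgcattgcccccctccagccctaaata
Klf4 nEnd-only: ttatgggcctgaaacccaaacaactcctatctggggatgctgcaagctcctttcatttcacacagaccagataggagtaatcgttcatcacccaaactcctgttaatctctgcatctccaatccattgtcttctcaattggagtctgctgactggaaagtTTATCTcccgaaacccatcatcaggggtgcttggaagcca
The Esrrb window held 3 AGATAA matches, the Lama1 and Klf4 windows held 1 each, and the Sox17 window held none.

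The 5 lists differed in length. The DP libraries A, A1 and B held 8316, 3821 and 1391 peaks, and the nEnd libraries B9 and B12 held 24223 and 32510. Read depth is unknown, and the scale of max signal is particular to each library, with medians of 10, 14 and 10 in DP and of 32 and 22 in nEnd. The number of peaks therefore limits what each library can show, and the main comparisons are also given with every library held to its 1391 strongest peaks, the length of the shortest list. The list of A1 and both nEnd lists differ from those of A and B by a tag in their deposited names that the sources used here do not explain, and no DP GATA6 library is labelled clone B9, although the study's methods name both clones for the CUT&RUN work, so the clone of each DP library rests on its label alone. The title of DP A ends in sub02, which the sources used here do not explain either, and whether it bears on the length of that list was not tested. Condition, clone and tag therefore cannot be fully told apart, and the values of A1 are printed beside those of A and B where a value is given per library. With A1 as the only DP library there were 865 DP-only, 17413 nEnd-only and 2336 shared regions. The difference between DP-only and nEnd-only regions was then 9.56 percentage points in the share with the GATA motif AGATAA, 12.2 in the share with naive SOX2 and -6.80 in the share within 1 kb of a transcription start site, against 18.04, 14.6 and -5.85 with the 3 DP libraries.

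Most DP peaks lay where GATA6 was bound in nEnd. Of the DP A peaks, 63.4% overlapped a peak of either nEnd library, as did 77.4% of the A1 peaks and 75.8% of the B peaks. The mean was 72.2% ± 7.66 (SD, n = 3). In the reverse direction, 17.1% of the nEnd B9 peaks and 16.3% of the B12 peaks overlapped a peak of any DP library. Their mean was 16.7% ± 0.542 (SD, n = 2). Of the 3457 regions with a peak of at least 2 DP libraries, 64.0% had a peak of both nEnd libraries, 15.5% of 1 nEnd library and 20.5% of neither. The shared regions made up 64.0% of these DP regions and 11.2% of the 19748 regions that both nEnd libraries held. Regions in all 3 DP libraries numbered 1127, of which 74.1% had a peak of both nEnd libraries and 12.6% of neither. Regions in exactly 1 DP library were without an nEnd peak in 50.5% of cases. The counts rested on single libraries in part: without DP A there were 155 DP-only and 834 shared regions, without A1 198 and 871, without nEnd B12 1231 DP-only regions and without nEnd B9 27208 nEnd-only regions, and without DP A 9.51% of nEnd peaks were found in DP. The fewer DP libraries held a region, the smaller was the share also held by nEnd.

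**Figure D1:**
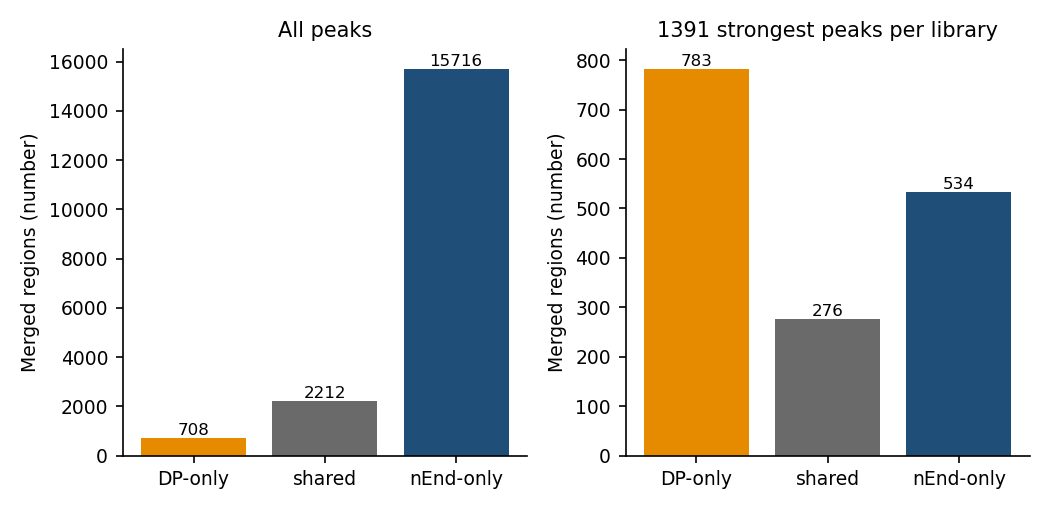
Number of merged GATA6 regions (bars from 0) that were DP-only, shared or nEnd-only, on the left with all peaks and on the right with the 1391 strongest peaks of each library. The nEnd-only class fell from 15716 to 534 regions while the DP-only class went from 708 to 783; the 2 vertical axes differ in scale.

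The strength of a peak within its own library went with its presence in the other condition. In the strongest 20% of DP peaks by max signal, 86.9% (A), 92.5% (A1) and 91.7% (B) overlapped an nEnd peak. In the weakest 20% the shares were 40.7%, 56.3% and 40.9%. The same order held in nEnd at a lower level. There 36.0% (B9) and 42.2% (B12) of the strongest 20% overlapped a DP peak, against 6.40% and 3.88% of the weakest. The AGATAA share followed the same gradient, from 84.1%, 88.1% and 88.1% in the strongest 20% of A, A1 and B to 47.6%, 57.3% and 43.4% in the weakest. In nEnd it went from 71.3% and 71.9% to 43.7% and 40.7%.

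**Figure D2:**
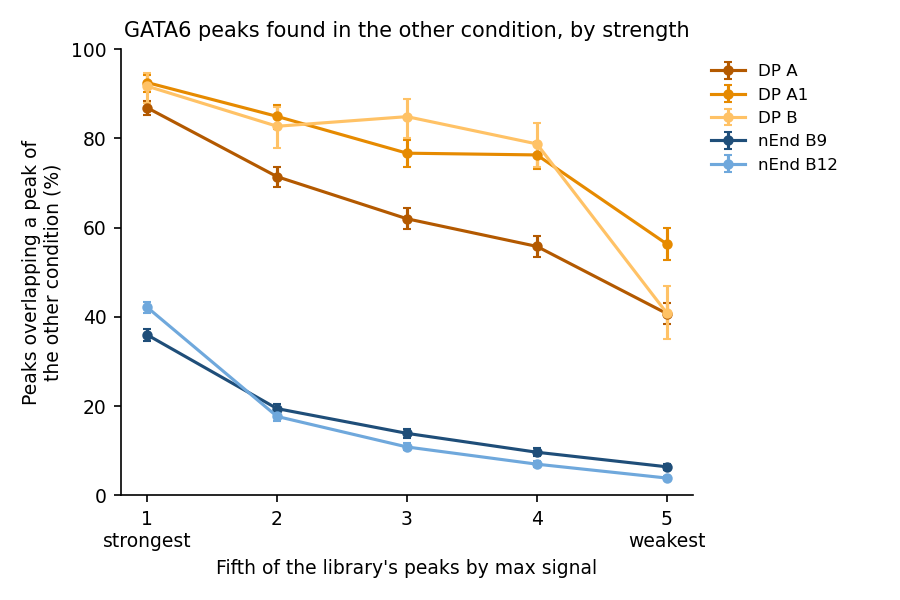
Percent of the peaks of each library (y axis) that overlapped a peak of the other condition, in steps of 20% of the library's peaks from strongest to weakest max signal (x axis); bars are 95% Clopper-Pearson intervals over peaks. The DP lines start between 86.9% and 92.5% and the nEnd lines between 36.0% and 42.2%, and each is lowest at the weakest peaks.

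At equal numbers the overlap of any 2 lists is nearly the same in both directions by construction, so the similar sizes below are no result. With 1391 peaks per library there were 3411 merged regions, of which 783 (23%) were DP-only, 276 (8.09%) shared and 534 (15.7%) nEnd-only. Of the DP A, A1 and B peaks, 33.4%, 37.0% and 31.0% overlapped a strongest peak of either nEnd library, with a mean of 33.8% ± 3.04 (SD, n = 3). Of the nEnd B9 and B12 peaks, 28.4% and 39.0% overlapped a strongest DP peak, with a mean of 33.7% ± 7.47 (SD, n = 2). The overlap within a condition was larger, with 62.9% to 76.2% between DP libraries and 63.6% between the nEnd libraries. Looked up in the full lists, 82.8% of the 783 DP-only regions had a peak in at least 1 nEnd list, 61.4% had peaks in both, and 135 (17.2%) had none. Of the 534 nEnd-only regions, 309 (57.9%) had no peak in any full DP list, and 39.7% had a peak in the list of A and 23.6% in that of A1. The list of B is used whole at this number and so could hold none of them. Any nEnd peak in a DP-only region of this kind ranks below the strongest 1391 by how the class is set, so the lookup gives presence and not rank. Over the 835 regions with a peak in every library, Spearman's rho of max signal was 0.69 to 0.81 between DP libraries, 0.86 between the nEnd libraries and 0.13 to 0.35 between a DP and an nEnd library. These regions were chosen for a peak in lists of unequal length and share their base composition and mappability, so rho is a description only.

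DP-only regions were weaker than shared ones in the DP libraries. They held a median percentile of 62.7 in A (695 regions with a peak), 40.0 in A1 (650) and 35.8 in B (213). Shared regions stood at 79.1, 61.2 and 55.4 in the same libraries. In nEnd, the shared regions had median percentiles of 80.2 (B9) and 91.4 (B12) and the nEnd-only regions of 51.3 and 60.4. Shared regions were thus the stronger class on both sides. They were also wider, with a median of 603 bp against 368.5 bp for DP-only and 499 bp for nEnd-only regions, which gives them more bases with which to overlap another mark. Of the DP-only regions, 142 had a peak in all 3 DP libraries.

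The GATA site was present in most windows of each class. AGATAA lay within 100 bp of the midpoint in 73.4% of DP-only regions (95% Clopper-Pearson interval 70.0% to 76.7%), 80.9% of shared regions (79.2% to 82.5%) and 55.4% of nEnd-only regions (54.6% to 56.2%). It lay in 55.6% of the merged regions taken as a whole. Windows of the same size beside the regions held it in 11.5% to 12.0% of cases in these classes. DP-only regions carried 2 or more matches in 32.1% of cases, shared regions in 39.1% and nEnd-only regions in 13.3%. Held to the 1391 strongest peaks, the AGATAA shares were 84.9%, 86.6% and 74.9%, so the gap between DP-only and nEnd-only regions went from 18.04 to 10.02 percentage points. It was 9.56 with A1 as the only DP library and 8.96 with a peak in any library of a condition taken as enough.

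**Figure D3:**
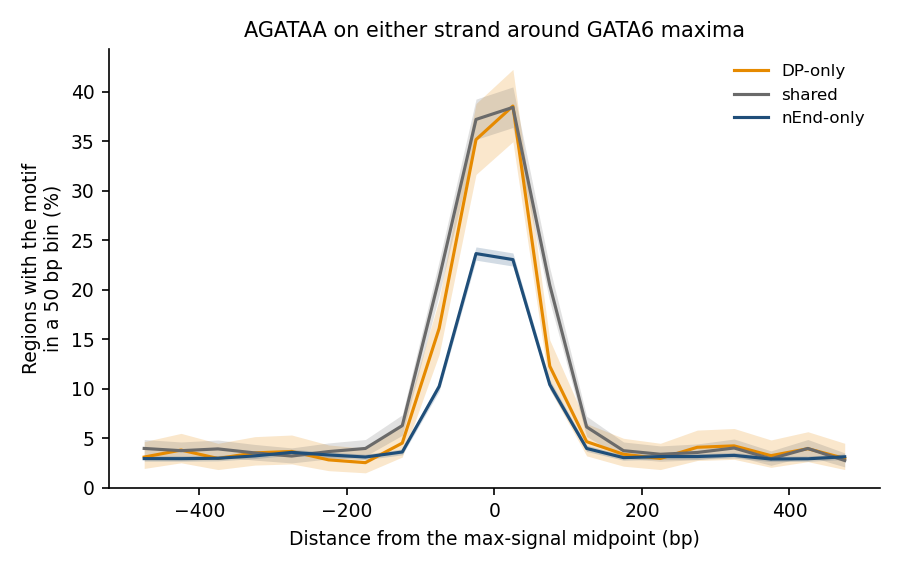
Percent of regions (y axis) with an AGATAA match on either strand in each 50 bp bin by distance from the max-signal midpoint (x axis, bp), for the DP-only, shared and nEnd-only classes with all peaks; shading is the 95% Clopper-Pearson interval over regions. In the bin just downstream of the midpoint the match was present in 38.6%, 38.4% and 23.1% of regions, and at the edges of the window in 2.76% to 3.98%.

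CATTGT, the core sequence bound by SOX proteins, ran the other way. It was present in 15.3% of DP-only regions (12.7% to 18.1%), 21.5% of shared regions (19.8% to 23.3%) and 27.5% of nEnd-only regions (26.8% to 28.2%), against 23.2% of the merged regions. At equal numbers the shares were 13.7%, 27.9% and 36.3%. The core is common to the SOX family, and the string does not tell its members apart. ATGCAAAT, the octamer bound by OCT4, was present in 2.97%, 2.22% and 1.46% of the 3 classes, and at equal numbers in 3.32%, 1.09% and 0.187%.

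SOX2 peaks were present at a minority of the regions with all peaks, and more often at DP-only and shared than at nEnd-only regions. SOX2 regions of naive pluripotent cells (at least 2 of the 4 libraries of 2iLIF and NACL media) overlapped 21.3% of DP-only regions (18.4% to 24.5%), 19.8% of shared regions (18.1% to 21.5%) and 6.73% of nEnd-only regions (6.35% to 7.14%). SOX2 regions of DP cells overlapped 22.5%, 31.6% and 2.10%. Over all merged regions the naive share was 8.71% and the DP share 5.19%. The DP SOX2 and DP GATA6 libraries are all labelled as sorted DP cells of clone B12, and the part of any shared handling in this overlap was not tested. SOX2 regions of the SOX2+ cells of KOSR culture, which were sorted without GATA6 signal, overlapped 20.9%, 20.8% and 6.07%, against 8.24% of all merged regions. With equal numbers of GATA6 peaks the naive SOX2 shares were 20.4%, 15.6% and 6.74%, and the DP SOX2 shares 36.0%, 50.7% and 4.87%. The GATA site was less frequent where naive SOX2 was present. Within the DP-only class, 61.6% of the 151 regions with naive SOX2 had AGATAA, against 76.7% of the 557 without. The values were 69.3% and 83.8% in the shared class and 33.5% and 57.0% in the nEnd-only class. CATTGT was more frequent there, in 20.5% against 13.8% of DP-only, 30.0% against 19.4% of shared and 36.9% against 26.9% of nEnd-only regions.

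H3K27ac of DP cells and of nEnd differed in frequency between the classes, and with all peaks that of naive cultures was about as frequent at DP-only as at nEnd-only regions. H3K27ac of DP cells covered 2.35% of the genome and overlapped 50.7% of DP-only regions (47.0% to 54.4%), 63.6% of shared regions (61.6% to 65.6%) and 23.6% of nEnd-only regions (22.97% to 24.3%). H3K27ac of nEnd covered 5.90% of the genome and overlapped 8.33% (6.40% to 10.6%), 57.2% (55.1% to 59.3%) and 62.0% (61.2% to 62.7%). Of the DP-only regions, 44.4% carried H3K27ac of DP cells alone, 6.36% of both states, 1.98% of nEnd alone and 47.3% of neither. Of the nEnd-only regions, 41.9% carried H3K27ac of nEnd alone, 20.1% of both, 3.53% of DP alone and 34.5% of neither. The shared regions carried the mark in both states in 43.0% of cases. In the naive media, where it covered 14.6% (2iLIF) and 14.5% (NACL) of the genome, H3K27ac of 2iLIF cells overlapped 49.3% of DP-only, 61.2% of shared and 47.4% of nEnd-only regions, and that of NACL cells 50.4%, 64.2% and 48.3%. Their shares over all merged regions were 49.3% and 49.8%. At equal numbers the 2iLIF shares were 59.1%, 58.3% and 43.3%, and the NACL shares 59.3%, 67.8% and 50.7%. H3K4me1 of DP cells (7.25% of the genome) overlapped 76.3% of DP-only, 90.3% of shared and 49.6% of nEnd-only regions. That of nEnd (3.82% of the genome) overlapped 12.4%, 65.7% and 54.5%. These sets differ in size, so shares can be set beside each other between classes and not between marks. The DP histone lists are 1 library per mark, and no test was made with them. Both nEnd H3K4me1 libraries are of clone B9.

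Enhancer marks of SOX2+ cells were more frequent at DP-only and shared than at nEnd-only regions. In these cells, H3K4me1 covered 4.79% of the genome and H3K27ac 0.891%. H3K4me1 overlapped 35.5% of DP-only regions (31.9% to 39.1%), 43.3% of shared regions (41.2% to 45.4%) and 24.2% of nEnd-only regions (23.6% to 24.9%). H3K27ac overlapped 14.3%, 15.9% and 6.92%. At equal numbers the H3K4me1 shares were 47.9%, 46.0% and 21.2%, and the H3K27ac shares 16.9%, 12.3% and 3.75%. The marks of DP cells and nEnd were more frequent in each class at equal numbers. There H3K27ac of nEnd overlapped 30.01% of DP-only, 84.4% of shared and 86.1% of nEnd-only regions, and H3K4me1 of nEnd 45.98%, 82.97% and 82.0%. H3K27ac of DP cells overlapped 69.3%, 74.3% and 26.97%, and H3K4me1 of DP cells 95.1%, 95.7% and 62.9%.

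**Figure D4:**
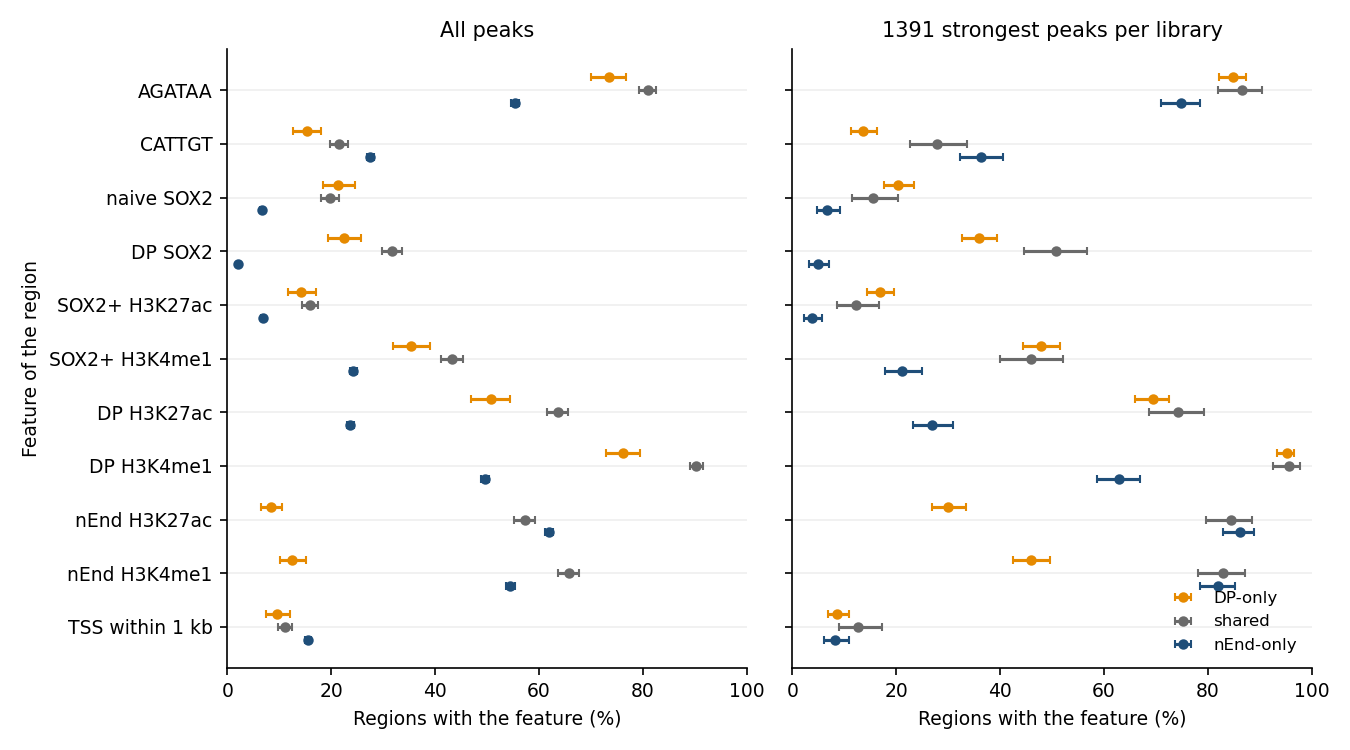
Percent of DP-only, shared and nEnd-only regions (x axis) with each feature (y axis), with all peaks on the left and with the 1391 strongest peaks of each library on the right; points are shares and bars 95% Clopper-Pearson intervals over regions. With all peaks, H3K27ac of nEnd marks 8.33% of DP-only against 62.0% of nEnd-only regions, and DP SOX2 22.5% against 2.10%.

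With all peaks, DP-only regions lay farther from genes. Their median distance to a protein-coding transcription start site (TSS) was 31786 bp, against 14766 bp for shared and 13356 bp for nEnd-only regions. With 1391 peaks per library the medians were 20046, 13221 and 17477 bp, so the gap to nEnd-only regions was much smaller. A start site was more than 50 kb away for 39.7% of DP-only (36.1% to 43.4%), 22.6% of shared (20.8% to 24.4%) and 20.97% of nEnd-only regions (20.3% to 21.6%). Any annotated TSS lay within 1 kb of 9.60%, 11.1% and 15.5%. At equal numbers the last shares were 8.68%, 12.7% and 8.24%, so the order of DP-only and nEnd-only regions was not kept. More than 50 kb separated 31.4% of DP-only, 18.8% of shared and 20.6% of nEnd-only regions from a start site at equal numbers. GC content was 42.1% in DP-only, 44.6% in shared and 45.4% in nEnd-only windows, and at equal numbers 44.2%, 44.8% and 44.4%. More of the DP-only regions were repeat sequence: 16.2% of their windows were over 50% soft-masked, against 9.31% of shared and 4.82% of nEnd-only windows, and at equal numbers 11.1%, 2.17% and 2.81%. With such peaks left out, an alternative added after the values were seen, 588 DP-only, 1976 shared and 14880 nEnd-only regions were found. DP-only regions were spread unevenly, with 11.9% on chromosome 1 and 10.7% on chromosome 4, against 8.95% and 6.37% of shared regions and 8.13% and 5.84% of nEnd-only regions. Chromosome 14 held 1.27% of DP-only regions, 2.62% of shared and 3.77% of nEnd-only regions.

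The strongest DP-only regions after those at Pprc1, Gm10720 and Cdh4 lay nearest to Nab1, a co-repressor of EGR factors, Macrod2, 1190002N15Rik, Zbtb20, a zinc-finger repressor, Scgb2b26, Kdm4c, an H3K9 demethylase, and Dusp6, a phosphatase that limits ERK signalling. The Pprc1 region had max signals of 58, 40 and 23 in DP A, A1 and B and no nEnd peak. The Cdh4 region had 54, 40 and 17. The Nab1 region (chr1:52527717-52528209, in an intron of an annotated gene) had 32, 38 and 19 and overlapped SOX2 of naive cells and of DP cells. These 3 regions were called in each DP library, among the higher ranks of each. The Gm10720 region had 29 in A and 25 in B and no peak in A1, and the Dusp6 region, 185811 bp from the gene, had 31 in A and 29 in A1 and no peak in B. The mean percentile of the 10 strongest ran from 90.7 to 96.5.

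The strongest shared regions were near the maximum of each library. The Atxn7l3b region had max signals of 118, 113 and 53 in DP A, A1 and B and of 278 and 313 in nEnd B9 and B12, above 99.9% of the peaks of each. The Lrpap1 region lay 438 bp from a start site of the gene, which encodes the chaperone of the endocytic LDL-receptor family in endoderm. It had 122, 103 and 37 in DP and 219 and 259 in nEnd, and was the strongest peak of DP A. The others lay nearest to Efcab2, Gm6993, Adora1, the adenosine A1 receptor, Scube2, Syt1, Cdca7, Tbx3, a T-box factor, and Fhod1, a formin. Each of the 10 overlapped SOX2 of DP cells and H3K27ac of nEnd, against 31.6% and 57.2% of the shared class.

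The strongest nEnd-only regions included those nearest to Sox17 and Foxa2, transcription factors of endoderm. The Sox17 region (chr1:4537142-4537975) had max signals of 214 in B9 and 224 in B12, above 99.7% of the peaks of each. The Foxa2 region (chr2:148012846-148014193, in an intron of an annotated gene and 31887 bp from a Foxa2 start site) had 216 and 206. None of the 3 DP libraries had a peak in either. The others lay nearest to Cystm1, Slc44a3, Chit1, Chst15, Prkaa2, a catalytic subunit of AMP-activated kinase, Tmem44, Kctd16 and Btbd8. All 10 overlapped H3K27ac of nEnd, against 62.0% of the nEnd-only class. None overlapped SOX2 of DP or of naive cells, which is near the class shares of 2.10% and 6.73%.

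The classes reached different numbers of genes. DP-only regions were nearest to 598 protein-coding genes (2.73% of the 21911 annotated), shared regions to 1732 (7.9%) and nEnd-only regions to 6759 (30.8%). Of the 598 genes, 294 (49.2%, or 4.35% of the nEnd-only genes) were also nearest to an nEnd-only region, and 271 (45.3%) had neither an nEnd-only nor a shared region. Held to equal numbers, the classes reached 701 (3.2%), 260 (1.19%) and 467 (2.13%) genes. Of these 701 genes, 37 (5.28%, or 7.92% of the nEnd-only genes) had regions of both kinds. Genes with long intergenic flanks gather more regions, and nearness does not show which gene a site acts on.

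Most regions of the 3 classes nearest to PrE transcription factors were nEnd-only, as over all regions. Of the regions of these classes nearest to them, 100 were nEnd-only, 17 shared and 1 DP-only, against 15716, 2212 and 708 in all. Of 13 listed factors, 11 were nearest to an nEnd-only region, 7 to a shared region and 1 (Klf6, a zinc-finger factor) to a DP-only region. At equal numbers the counts were 6, 2 and 2. Of the 13 genes of the basement membrane, which PrE cells secrete, 13 had an nEnd-only region, 6 a shared region and none a DP-only region. At equal numbers 6 had an nEnd-only, 6 a shared and 1 (Plod2, a collagen-modifying enzyme) a DP-only region. The 19 genes of endocytosis and the cell surface had counts of 16, 9 and 1 (Krt8, a keratin). At equal numbers 7 of these 19 were nearest to a DP-only region, 5 to a shared and 2 to an nEnd-only region, with background shares of 3.2%, 1.19% and 2.13%. They included Cited2 (max signals of 56, 41 and 24 in DP A, A1 and B), Pdgfra (44, 50 and 13) and Fgfr1 (37, 31 and 11). The full nEnd lists also held a peak at each of these, with 62 and 82 in B9 and B12 at Cited2, 37 and 83 at Pdgfra and 21 and 16 at Fgfr1. Of the 27 DP-only regions at equal numbers nearest to a gene of any list, 25 had a peak in at least 1 full nEnd list and 21 in both. The 2 with none were nearest to Sox2 and Tbx3. Of the 8 secreted proteins of visceral endoderm, 3 had an nEnd-only region and 2 a shared region, near Ttr and Apoe, and at equal numbers 1 (Ttr) had a DP-only region and none a region of the other classes.

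Pluripotency transcription factors also had GATA6 regions in nEnd. Of the 17 listed, 13 were nearest to an nEnd-only region, 10 to a shared region and 3 to a DP-only region, and 2 to none of the 3 classes. The 3 with DP-only regions were Tbx3, Nr5a2 and Sox2. At equal numbers 5 had a DP-only region, 2 a shared region (Tbx3 and Esrrb) and none an nEnd-only region. Tbx3 had 2 DP-only regions at equal numbers. That at chr5:119584939-119585401 had max signals of 41, 49 and 18 in DP A, A1 and B, and the full lists of B9 and B12 held 28 and 48 there. That at chr5:119595351-119595735 had 44, 27 and 16 and no peak in either full nEnd list. The 22 pluripotency signalling and other genes had counts of 10 nEnd-only, 6 shared and no DP-only region. At equal numbers these were 0, 0 and 4 (Tet1, Fbxo15, Il6st and Dppa4). Of the 12 trophoblast genes, 4 had an nEnd-only and 2 a shared region, and of the 10 mesoderm and definitive endoderm genes, 2 had an nEnd-only, 3 a shared and 1 a DP-only region. The 12 housekeeping genes had counts of 6, 2 and 0. Counts of nEnd-only, shared and DP-only regions at equal numbers were 2, 0 and 1 for the trophoblast list, 1, 0 and 2 for the mesoderm and definitive endoderm list (the regions of Cxcr4 and Gsc, DP-only at equal numbers, were shared with all peaks, with 37 and 71 and with 41 and 54 in B9 and B12), and 1, 1 and 0 for the housekeeping list. The background shares of genes nearest to an nEnd-only, a shared and a DP-only region are 30.8%, 7.9% and 2.73%. The first 3 PrE lists and the pluripotency factors had nEnd-only shares of 76.5% to 100% and shared-region shares of 46.2% to 58.8%, and the housekeeping genes had 50% and 16.7%. The visceral endoderm list had 37.5% and 25%, the pluripotency signalling list 45.5% and 27.3%, the trophoblast list 33.3% and 16.7%, and the mesoderm and definitive endoderm list 20% and 30%. No list was tested.

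The loci of the lineage factors are described by counts of regions, and no locus was tested. Over all 39910 merged regions, 5.54% were shared, 39.4% nEnd-only and 38.7% in 1 nEnd library alone, so few DP peaks at a locus are common. Lama1 (ENSMUSG00000032796) had 15 regions, of which 10 were nEnd-only and none held a DP peak. Its strongest had 139 in B9 and 137 in B12. Sox17 (ENSMUSG00000025902) had 16 regions and 1 of them, 18914 bp from the gene, was shared, with max signals of 47 in A, 33 in A1, 176 in B9 and 181 in B12 and no peak in B. Gata4 (ENSMUSG00000021944), which acts beside GATA6 in endoderm, had 2 shared regions of 13, both intronic. The stronger had 14 in A, 23 in A1, 301 in B9 and 208 in B12, and B had no peak there. These DP peaks at Sox17 and Gata4 thus stood in A and A1 and were missing in the shortest list.

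Gata6 itself (ENSMUSG00000005836) had 27 regions, of which 3 were shared and 8 nEnd-only. Its strongest shared region had 20 in A, 18 in A1, 146 in B9 and 161 in B12, and no peak in B. Pdgfra (ENSMUSG00000029231), the receptor that marks early PrE, had 24 regions and 5 shared ones. Of these, 4 lay upstream of the gene. At chr5:75146026-75146990, 5608 bp upstream in an exon of a noncoding gene, the max signals were 44, 50 and 13 in DP and 37 and 83 in nEnd. At chr5:75143141-75144124, 8411 bp upstream in an intron of the same noncoding gene, they were 32, 35 and 9 in DP and 283 and 250 in nEnd. These neighbouring upstream sites were ordered differently, with the nearer ahead in DP and the farther ahead in nEnd. Col4a1 (ENSMUSG00000031502), a basement membrane collagen, had 2 shared regions of 21. The stronger, at chr8:11266062-11266728, had 63, 57 and 33 in DP and 46 and 110 in nEnd and overlapped SOX2 of naive and of DP cells.

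At the pluripotency genes, Esrrb (ENSMUSG00000021255) had a shared intronic region at chr12:86480305-86481180, with max signals of 72, 68 and 39 in DP A, A1 and B and of 133 and 140 in nEnd B9 and B12. It carried DP SOX2 and H3K27ac of DP and of SOX2+ cells and no H3K27ac of nEnd. Sox2 (ENSMUSG00000074637) had 7 regions. The DP-only region at chr3:34745171-34745580 lay 94921 bp from Sox2 and had 18, 25 and 13. It overlapped SOX2 of naive and of DP cells and H3K27ac of DP and of SOX2+ cells. Klf4 (ENSMUSG00000003032) had 30 regions, with 2 shared and 13 nEnd-only, against 5.54% and 39.4% of all merged regions. At Pou5f1, which encodes OCT4, A1 had 3 weak peaks with max signals of 5 and 6, and A and B had none. An nEnd-only region 567 bp from its start site had 22 in B9 and 20 in B12, and B12 had 2 further peaks there with 33 and 12. Nanog had 1 weak peak in A and 1 in A1, at different places, and no nEnd peak. No region was nearest to Fgf4.

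The per-library shares allow a test over samples. With 3 against 2 libraries there are 10 splits, and the smallest two-sided p of the exact permutation test is 0.2 (11 measures compared, Benjamini-Hochberg adjusted 0.2), so no measure could pass 0.05. With all peaks each of the 11 measures reached this p, because no DP value overlapped an nEnd value. The AGATAA share was 70.5%, 76.7% and 74.0% in DP A, A1 and B and 57.2% and 55.7% in nEnd B9 and B12. The difference was 17.3 percentage points, and it kept its sign at equal numbers, where DP (84.8%, 86.1% and 74.0%) and nEnd (75.5% and 80.3%) overlapped (difference 3.75, exact p = 0.6, adjusted 0.66). The CATTGT share was 16.4%, 18.03% and 17.4% in DP and 27.4% and 22.9% in nEnd. At equal numbers it was 17.1%, 17.97% and 17.4% against 35.2% and 28.8%, with no overlap of the groups (exact p = 0.2, adjusted 0.244, as for the 8 other measures without overlap at equal numbers).

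The naive SOX2 share was 16.5%, 19% and 20.1% in DP and 7.85% and 8.76% in nEnd, a difference of 10.2 percentage points. It was 9.39 at equal numbers. The DP SOX2 share was 17.4%, 26.8% and 36.7% against 5.12% and 5.16%, and at equal numbers 35.6%, 38.8% and 36.7% against 15.4% and 19.1%. The spread between the DP libraries with all peaks went with the length of their lists, the longest list having the lowest share. H3K27ac of nEnd overlapped 36.1%, 41.0% and 40.0% of DP peaks and 56.5% and 55.8% of nEnd peaks, and at equal numbers 45.5%, 46.0% and 40.0% against 77.6% and 79.5%. H3K4me1 of SOX2+ cells overlapped 37.8%, 40.5% and 43.6% of DP peaks and 25.5% and 28.5% of nEnd peaks. Their H3K27ac overlapped 13.8%, 15.2% and 16.97% of DP peaks and 7.58% and 9.07% of nEnd peaks. H3K4me1 of nEnd overlapped 40.5%, 49.6% and 49.5% of DP peaks and 50.6% and 52.8% of nEnd peaks, a gap of 0.931 percentage points between the nearest libraries. The difference of the means was -5.15 percentage points, and -2.14 without DP A. At equal numbers the shares were 56.8%, 57.4% and 49.5% against 73.8% and 81.2%, a difference of -22.9. Median peak width was 276, 328 and 300 bp in DP and 422 and 403 bp in nEnd, and at equal numbers 332, 335 and 300 bp against 623 and 686 bp, so the difference went from -111 to -332 bp. Mean GC content was 44.4%, 43.8% and 43.5% in DP and 45.3% and 45.4% in nEnd, and the groups overlapped at equal numbers (exact p = 0.8). The TSS-proximal share was 12.1%, 10.2% and 10.2% in DP and 14.4% and 15.8% in nEnd, and at equal numbers 10.6%, 9.35% and 10.2% against 9.27% and 9.13%, so its direction turned. With all peaks no DP value overlapped an nEnd value, and this includes A1, the DP library without the tag. Whether the tag bears on these values was not tested.

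**Figure D5:**
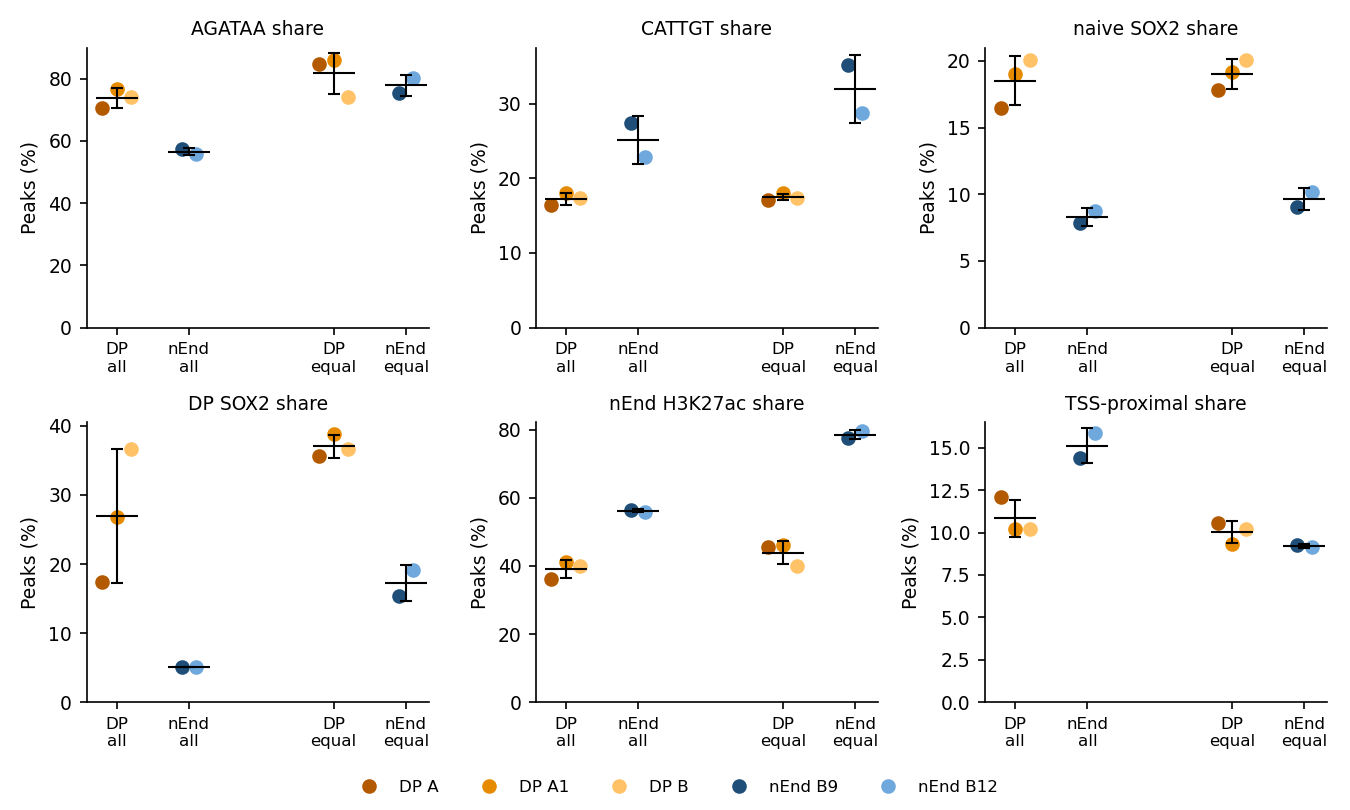
Percent of the GATA6 peaks of each library (y axis) with the named feature, for DP and nEnd, with all peaks (all) and with the 1391 strongest peaks of each library (equal); points are libraries, horizontal bars group means and error bars SD (n = 3 DP, n = 2 nEnd). The naive SOX2 points of DP lie between 16.5% and 20.1%, above both nEnd points in each setting, while the TSS-proximal points change order.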

How the data were processed

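CUT&RUN reads were processed by the authors; the submitters' processing notes list cutadapt 1.18, Bowtie2 2.3.4.1, SAMtools 1.9, Picard 2.9.1, bedtools 2.27.1, deepTools 3.2.0 and SEACR, with genome mm10 (GRCm38). SEACR peaks were called per library against IgG. The deposited lists have 6 columns, of which column 4 (total signal) and column 5 (max signal) hold whole-number coverage that is not on a common scale, so read depth is unknown and signal served only to rank the peaks of a library. The transcription factor lists are named as stringent, while the methods give relaxed. The 2 KOSR histone lists whose labels name different populations were not used.

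Peaks (autosomes, X and Y) were merged where they shared at least 1 bp. Marks of other samples were merged in the same way and kept with peaks in at least 2 libraries (1 for DP histone marks). Ties in max signal were broken by total signal. Genes, exons and TSSs came from GENCODE M21; "promoter" means within 1 kb of any TSS and "intron" or "exon" means of any annotated gene, which need not be the nearest protein-coding gene. Motifs were exact strings on both strands of GRCm38.p6, in 200 bp windows. Named genes were those nearest to the 10 strongest regions of each class, up to 4 members per list and class, and 12 lineage genes. Regions are not replicates, so Clopper-Pearson intervals (95%) cover counting error only. Nothing states that the libraries were separate cultures beyond their titles and clone labels, so p-values measure the spread between these libraries, which may be technical. Samples were compared by exact permutation, two-sided (scipy 1.17.1). Sequences are shown for the 3 strongest regions of each class and the strongest of the lineage genes, outside chromosome 18. The code was tested on simulated peak lists. The alternatives included equal peak numbers, stricter overlap and each library left out. The members and lists were chosen with earlier results of these data known.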

Additional observations from a re-analysis of the deposited data

How the results depend on the processing

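The counts of regions changed with the number of peaks used and with the number of libraries required. With equal numbers there were 534 nEnd-only and 276 shared regions (568 and 276 when ranked by total signal), and DP-only regions stayed within 1.5 times of their number. The stronger 50% of each list gave 385 DP-only, 7616 nEnd-only and 1091 shared regions, a peak in any library of a condition gave 3382, 31162 and 5366, and peaks in all 3 DP libraries gave 142 DP-only and 835 shared regions. Leaving out each library in turn gave 155 (without DP A) to 1231 (without nEnd B12) DP-only, 15721 (without DP B) to 27208 (without nEnd B9) nEnd-only and 834 (without DP A) to 2731 (without nEnd B9) shared regions. Without DP A1 there were 198 DP-only and 871 shared regions. The share of DP peaks found in nEnd was 33.8% at equal numbers and 58.4% to 76.6% with a library left out, and that of nEnd peaks found in DP was 33.7%, 9.51% (without DP A) to 17.1%, and 9.34% with A1 alone. An overlap of 50% and midpoints within 500 bp moved none of these beyond the limits used. These counts differ by construction, since each setting changes how many peaks or libraries enter.

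The difference in AGATAA share between DP-only and nEnd-only regions, 18.04 percentage points, was 10.02 at equal numbers, 8.96 with any library, 9.56 with A1 alone and 22.3 without peaks over 50% soft-masked, an alternative chosen after seeing the data. The difference in naive SOX2 share was 7.997 with any library. The difference in TSS-proximal share was 0.44 at equal numbers, and over libraries it went from -4.29 to 0.84, the direction that turned. Of the 98 alternatives for the 11 measures with a test, 97 kept the direction, and none could reach 0.05. Leaving out a library or using A1 alone could not turn a direction, because no DP value overlapped an nEnd value with all peaks. A kept direction means the sign only, since the groups overlapped at equal numbers in AGATAA share and GC content. No paired analysis was possible because the labels of the DP libraries name experiments (all labelled clone B12) and those of nEnd name clones (B9 and B12), so nothing in them ties a DP library to an nEnd library as a shared culture or batch. Unknown depth, 1 DP library of 1391 peaks and 1 library per DP histone mark limit what can be said of absent peaks.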
